A study of Mus musculus with 12 samples.

Results

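Gene expression in MyD88-null macrophages was compared with that in C57BL/6 macrophages after both had been exposed to apoA-I for 2 h. The comparison takes the 6 arrays whose titles give apoA-I as the treatment, 3 of each genotype, of the 12 arrays in the series. It concerns the levels reached with apoA-I, not the size of the response to it. Peritoneal macrophages were elicited with thioglycollate in female mice aged 10 weeks, either C57BL/6 or MyD88-/-, and collected 96 h later. Cells of both genotypes were loaded overnight with cholesterol at 10 µg/ml and placed in medium with polymyxin B at 25 µg/ml, an antibiotic that binds bacterial lipopolysaccharide. After 30 min, apoA-I, the protein that forms the scaffold of high-density lipoprotein, was added at 10 µg/ml. The remaining 6 arrays are control wells of the same genotypes, loaded with cholesterol in the same way, and their genotype difference is given beside the treated one for many of the genes. The labels give the strain of the null mice only as MyD88-/-, and say neither which allele they carry nor how many animals gave a sample, so the p-values rest on variation among these samples, part or all of which may be technical.

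MyD88 is an adaptor protein that relays signals from interleukin-1 family receptors and nearly every Toll-like receptor. It recruits kinases of the IRAK family, and the signal then reaches the transcription factor NF-kappaB and the MAP kinases, which turn on cytokine and chemokine genes. Toll-like receptor 4 can also signal through another adaptor, TRIF, and Toll-like receptor 3 signals through TRIF and not MyD88. The TRIF route leads to interferon beta and the genes that interferon induces. In macrophages these routes control the first wave of inflammatory transcripts.

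Of 16744 genes tested, 37 passed the threshold of 0.05 on the adjusted p, which is 0.221% of them. In MyD88-null cells 30 were lower (0.179%) and 7 higher (0.0418%) (2289 of all genes at an unadjusted p under 0.05). The genes that were lower were led by inflammatory mediators: Il6, Il12b, Csf3, Il1a, Cxcl2, Csf2, Edn1, Il1b, Nfkbiz and Tnf were each more than 8-fold lower in the null cells, and Lcn2, below background there, at least 6.38-fold. The genes that were higher included Mela, the chemokine Cxcl11, Zfp14, Zfyve28, Pcp4l1 and Ramp1. All 37 differed in the same direction in each of the 3 replicate experiments, as 35.2% of all genes did, and for 34 of them the 3 null arrays did not overlap the 3 C57BL/6 arrays, as for 5.6% of all genes. The 37 were selected by p on these same arrays, so both counts describe them and are no separate support.

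**Figure D1:**
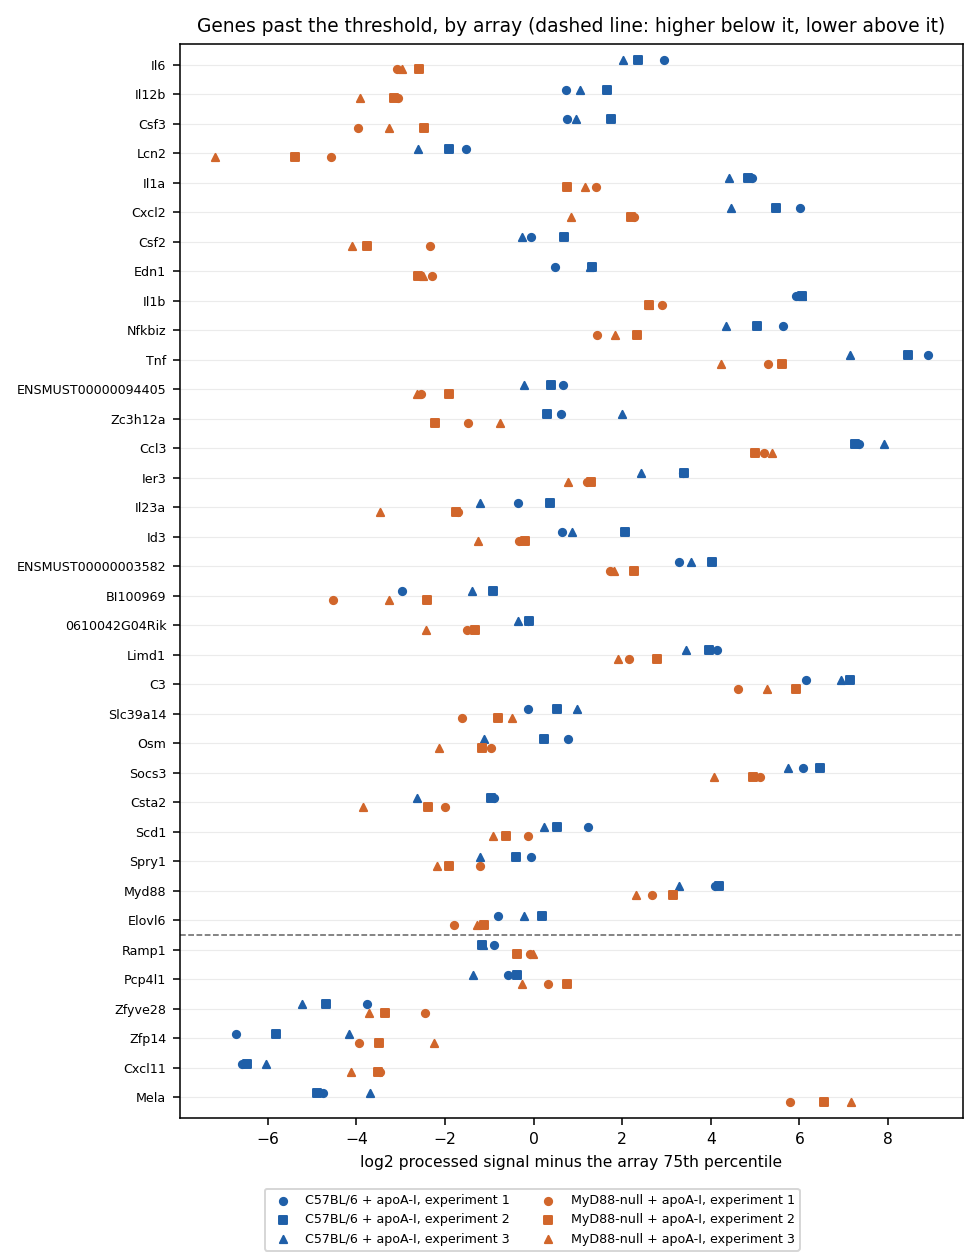
Log2 level (scaled to the 75th percentile of each array, x axis) of genes past the threshold on each of the 6 treated arrays, with blue for C57BL/6, orange for MyD88-null and the marker shape for the experiment. The 30 genes above the dashed line were lower in the null cells and the 6 below it higher, and among those drawn only BI100969, Osm and Csta2 have arrays of both genotypes in the same range.

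Stretches of promoter are shown for 5 genes so that their letters can be set beside their levels. Il6, Il12b and Il1a stayed far lower in null cells with apoA-I, while Nfkbia and Cxcl10 reached levels near those of C57BL/6 cells. Each run holds the 250 bases before the gene's start, read 5′ to 3′ on the gene's strand, from RefSeq on build GRCm38.p6. Capitals mark matches, on either strand, to an NF-kappaB motif (GGGA and TTCC with 2 bases of any kind between them), an interferon response motif (GAAA and GAAA with 2 bases between) or an AP-1 motif (TGANTCA), and no 2 matches overlap in these runs. Il6 lies at chr5:30012864-30013113 on the + strand, Il12b at chr11:44399813-44400062 on the + strand and Il1a at chr2:129309973-129310222 on the - strand. Nfkbia lies at chr12:55492648-55492897 and Cxcl10 at chr5:92348890-92349139, both on the - strand.
Il6: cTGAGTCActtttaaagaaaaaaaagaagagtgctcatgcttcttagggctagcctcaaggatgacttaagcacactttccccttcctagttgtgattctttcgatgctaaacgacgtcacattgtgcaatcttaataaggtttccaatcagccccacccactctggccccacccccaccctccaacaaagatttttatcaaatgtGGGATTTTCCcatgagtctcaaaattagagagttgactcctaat
Il12b: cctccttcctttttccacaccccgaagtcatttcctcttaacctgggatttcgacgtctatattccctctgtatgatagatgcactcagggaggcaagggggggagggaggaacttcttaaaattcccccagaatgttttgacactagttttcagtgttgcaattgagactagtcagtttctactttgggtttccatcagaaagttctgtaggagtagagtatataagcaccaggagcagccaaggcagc
Il1a: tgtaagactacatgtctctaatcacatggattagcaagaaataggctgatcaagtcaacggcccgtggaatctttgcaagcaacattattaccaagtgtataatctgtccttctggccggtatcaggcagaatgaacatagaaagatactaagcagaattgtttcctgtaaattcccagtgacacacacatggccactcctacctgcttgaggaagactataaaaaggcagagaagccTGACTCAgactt
Nfkbia: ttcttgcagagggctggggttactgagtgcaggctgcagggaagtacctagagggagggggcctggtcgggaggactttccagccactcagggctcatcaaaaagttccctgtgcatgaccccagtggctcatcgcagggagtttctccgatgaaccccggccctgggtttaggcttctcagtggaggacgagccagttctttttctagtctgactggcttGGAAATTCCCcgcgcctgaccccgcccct
Cxcl10: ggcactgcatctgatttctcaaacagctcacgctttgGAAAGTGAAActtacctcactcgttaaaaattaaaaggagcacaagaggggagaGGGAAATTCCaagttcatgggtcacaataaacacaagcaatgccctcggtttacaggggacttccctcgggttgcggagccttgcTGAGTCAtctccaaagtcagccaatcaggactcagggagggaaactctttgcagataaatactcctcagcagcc

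The NF-kappaB letters were found in Il6, 44 to 35 bases before the start, in Nfkbia (29 to 20 bases) and in Cxcl10 (159 to 150 bases). The interferon response letters were found in Cxcl10 alone among these 5, 213 to 204 bases before the start. The AP-1 letters were found in Il6 (249 to 243 bases), Il1a (12 to 6 bases) and Cxcl10 (74 to 68 bases). Among 14117 promoters of genes tested, 1.18% held the NF-kappaB letters, 2.74% the interferon response letters and 5.11% the AP-1 letters. Over all 32851 promoters in the table these shares were 1.21%, 2.98% and 6.75%. Of the 30 genes that were lower, 19 had a promoter there, and 2 of the 19 held the NF-kappaB letters (Il6 and Cxcl2), 2 the interferon response letters (Edn1 and Myd88) and 2 the AP-1 letters (Il6 and Il1a). The same NF-kappaB letters thus stand before a gene that differed between genotypes with apoA-I and before Nfkbia, for which no difference was detected. A match describes the letters in this window and is not a measured binding site.

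The Myd88 probe, which lies on mm7 chromosome 9 at 119016408 to 119016467, exceeded background on each of the 12 arrays. Its log2 level, meaning log2 of the processed signal minus that of the array's 75th percentile, was 4.10, 4.19 and 3.29 on the C57BL/6 arrays with apoA-I in experiments 1, 2 and 3. On the null arrays it was 2.68, 3.16 and 2.32. The null level was lower in each experiment, with a difference of -1.14 (SE 0.15, adjusted p = 0.0270), or 2.21-fold, and the groups did not overlap. This call was kept in 1 of the 12 fits that left out an array, with a highest adjusted p of 0.25. Which part of the gene is missing in these mice is not given in the labels, so the remaining signal does not test the genotype labels. The array titles and source names were followed for treatment, although the description of MyD88-null apoA-I replicate 2 leaves out the apoA-I step and that of C57BL/6 control replicate 2 includes it. Acod1 read 7.98 on MyD88-null apoA-I replicate 2, 8.05 and 7.47 on the other treated null arrays, and 0.30 on null control replicate 2. It read 4.42 on C57BL/6 control replicate 2 and 8.31 on C57BL/6 apoA-I replicate 2. Il6 read -2.59 and -6.82 on the null apoA-I and control replicates 2, and 2.35 and -5.97 on the C57BL/6 ones. On the other C57BL/6 control arrays Acod1 read 5.45 and 4.34, and Il6 -6.42 and -5.03. On the other treated null arrays Il6 read -3.08 and -2.98. For Acod1 and Il6, both arrays with contradictory descriptions thus read near the other arrays of the groups in their titles. Beyond these readings, which label is right was not tested.

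The dimmest array was MyD88-null apoA-I replicate 1, with a 75th percentile of 209.8, and the brightest was C57BL/6 control replicate 3, with 1489, and 57.55% to 73.62% of probes were well above background. Correlations between replicate arrays over genes, which are not independent of each other, were 0.9151 to 0.9792. In experiments 2 and 3 both treated genotypes sat on 1 slide, while those of experiment 1 sat on separate slides scanned on different days. Within the slides of experiments 2 and 3 Il6 differed by -4.94 and -4.99. Macrophage markers were present in both genotypes: 19 of 21 marker genes were measured, and their summed signal was 1946 to 2452 times the 75th percentile in C57BL/6 cells and 1986 to 2967 in null cells. The number of arrays limits the precision of all values. Leaving out 1 array at a time gave 5, 14 and 7 genes without C57BL/6 apoA-I replicates 2, 1 and 3, and 19, 20 and 16 without MyD88-null apoA-I replicates 1, 2 and 3. Without C57BL/6 control replicates 1, 2 and 3 it gave 32, 23 and 29, and without MyD88-null control replicates 1, 2 and 3 it gave 22, 34 and 60. Il6, Il12b, Csf3, Il1a and Mela passed in all 12 of these fits, and 13 of the 37 genes passed in at least 8. For most of the others the highest adjusted p arose without C57BL/6 apoA-I replicate 2, and below, a call is followed by the number of these 12 fits that kept it and its highest adjusted p in them.

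With an entire experiment left out, 3, 0 and 0 genes passed in limma without experiments 1, 2 and 3, while 1645, 1511 and 1990 had an unadjusted p under 0.05. When treatment was taken from the descriptions of the 2 contradictory samples in place of their titles, 13 genes passed, 11 higher and 2 lower, of which 3 were among the 37. With both samples left out only Mela passed, while the Il6 difference was -5.43 (adjusted p = 0.081) and that of Il12b -4.53 (adjusted p = 0.0557).

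Cytokines formed the group with most genes past the threshold. Of 24 measured, 9 were lower in null cells, none was higher, and 20 had negative differences, as 6885 of all 16744 genes did. The median log2 difference was -1.65, against 0.079 over all genes. For 10 of the 24 the null arrays all lay below the C57BL/6 arrays, as 2.43% of all genes did. In control cells 3 of the 24 were lower and the median was -0.56. The list was chosen with earlier results of these arrays known, so its count describes these samples.

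Il6, an inducer of the acute phase response (mm7 chromosome 5, 29052734 to 29052793), had the largest decrease. Its log2 levels with apoA-I were 2.95, 2.35 and 2.01 in C57BL/6 cells and -3.08, -2.59 and -2.98 in null cells. All 3 null arrays lay more than 4 log2 units below all 3 C57BL/6 arrays, and the probe was well above background on each of the 6. The difference was -5.32 (SE 0.44, 95% interval -6.32 to -4.32, adjusted p = 0.00405), a 39.9-fold lower level. In control cells Il6 was well above background on 1 C57BL/6 array and on no null array.

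Il12b encodes the p40 subunit shared by interleukins 12 and 23 (mm7 chromosome 11, 44370372 to 44370431). Its levels were 0.72, 1.66 and 1.04 in C57BL/6 cells and -3.06, -3.14 and -3.92 in null cells. The genotypes were far apart in each experiment, by -3.78, -4.80 and -4.95. The difference of -4.51 (SE 0.36, adjusted p = 0.00405) corresponds to 22.8-fold. No control array of either genotype was well above background for it.

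Il23a, the p19 subunit that pairs with p40 to form interleukin 23, followed at smaller size. Its levels were -0.36, 0.38 and -1.21 against -1.70, -1.76 and -3.48 in null cells, a difference of -1.91 (SE 0.27, adjusted p = 0.0413). It too was below background on all 6 control arrays. This call was kept in 2 of the 12 fits (highest adjusted p 0.269).

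Both interleukin-1 ligands were lower. Il1a, a ligand of the interleukin-1 receptor that signals through MyD88 (mm7 chromosome 2, 129041111 to 129041170), had levels of 4.93, 4.85 and 4.42 in C57BL/6 cells and 1.41, 0.75 and 1.17 in null cells. Its difference was -3.62 (SE 0.25, adjusted p = 0.00222), or 12.3-fold, and another Il1a probe gave -3.68 (adjusted p = 0.00181 among probes). Il1b, the secreted ligand made from a cleaved precursor, had 5.92, 6.06 and 6.07 in C57BL/6 cells and 2.89, 2.59 and 2.61 in null cells. Replicates lay close together in each genotype (SD 0.084 and 0.17, n = 3), against a difference of -3.32 (SE 0.30, adjusted p = 0.00592), or 9.97-fold. The Il1b call was kept in 10 of the 12 fits (highest adjusted p 0.0756).

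The colony-stimulating factors, growth factors of granulocytes and macrophages, were both lower. Csf3, the granulocyte factor (mm7 chromosome 11, 98812339 to 98812398), stood at 0.76, 1.76 and 0.96 in C57BL/6 cells and -3.97, -2.47 and -3.27 in null cells, where 2 of 3 arrays were well above background. The difference was -4.39 (SE 0.33, adjusted p = 0.00356), or 21.0-fold. Csf2, the granulocyte-macrophage factor, stood at -0.07, 0.70 and -0.26 against -2.35, -3.75 and -4.09. It differed by -3.52 (SE 0.39, adjusted p = 0.0152), or 11.5-fold, and this call was kept in 8 of the 12 fits (highest adjusted p 0.12). Csf3 was at least 4.81-fold lower in null control cells as well (adjusted p = 0.00232), whereas Csf2 was below background on all control arrays.

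Tnf, the early macrophage cytokine tumour necrosis factor (mm7 chromosome 17, 33296067 to 33296126), remained clearly expressed in null cells. Levels were 8.89, 8.46 and 7.13 in C57BL/6 cells and 5.30, 5.60 and 4.24 in null cells. The difference was -3.12 (SE 0.31, adjusted p = 0.0106), or 8.68-fold, and -4.07 (SE 0.31) in control cells. Its call was kept in 7 of the 12 fits (highest adjusted p 0.113). Osm, oncostatin M of the interleukin-6 family, differed by -1.38 (SE 0.17, adjusted p = 0.0252) but with overlapping groups, at 0.78, 0.24 and -1.12 against -0.96, -1.15 and -2.14. The call of Osm was kept in 4 of those fits (highest 0.248), and another of its probes gave -1.05 (adjusted p = 0.172 among probes). Il10, an anti-inflammatory cytokine, had a difference of -0.42 (95% interval -0.85 to 0.01, adjusted p = 0.378), and Ifnb1, interferon beta, one of 1.00 (95% interval -0.14 to 2.14, adjusted p = 0.409).

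Of 21 chemokines measured, 2 were lower, 1 was higher and 16 had negative differences (median -0.70), against 6885 of 16744 over all genes. Cxcl2, which attracts neutrophils (mm7 chromosome 5, 90894748 to 90894807), had levels of 6.00, 5.47 and 4.45 in C57BL/6 cells and 2.26, 2.21 and 0.84 in null cells, a difference of -3.54 (SE 0.50, adjusted p = 0.0417), or 11.6-fold. Its relative Cxcl1 had a difference of the same order, -4.04, with groups that did not overlap, but a larger SE of 0.65 and an adjusted p of 0.0650. In control cells Cxcl1 was lower, with a difference of -5.55 (SE 0.65, adjusted p = 0.00968). The Cxcl2 call was kept in 2 of the 12 fits (highest adjusted p 0.269). Cxcl1 passed with centring on the array median (-4.21), with normexp background correction (-4.05), with the slide as a random block (-4.21) and without MyD88-null control replicate 2.

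Ccl3, the macrophage inflammatory protein 1 alpha that recruits monocytes and T cells, was at 7.34, 7.27 and 7.92 in C57BL/6 cells and 5.19, 5.00 and 5.39 in null cells. Its difference was -2.32 (SE 0.21, adjusted p = 0.00592), or 4.98-fold, kept in 10 of the 12 fits (highest adjusted p 0.0853). Its close relative Ccl4 lay at 8.54, 8.45 and 7.95 against 8.16, 6.82 and 5.98. The Ccl4 groups overlapped, and its difference of -1.33 (95% interval -2.29 to -0.37) gave an adjusted p of 0.267. Ccl2, a monocyte attractant, differed by -1.65 (SE 0.28, adjusted p = 0.0830) without overlap, and by -3.86 (SE 0.28, adjusted p = 0.00201) in control cells. For Ccl5, the difference was -0.24 (95% interval -1.62 to 1.14, adjusted p = 0.867).

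Among chemokines that interferon induces, Cxcl11, a T cell attractant, was not well above background on any C57BL/6 array (-6.59, -6.48 and -6.05) and was above it on all 3 null arrays (-3.48, -3.50 and -4.13). It was at least 2.32-fold higher in null cells (adjusted p = 0.0152), where "at least" sets the null mean against the lowest signal detected on each C57BL/6 array. This call was kept in 7 of the 12 fits (highest adjusted p 0.148). No control array was above background for Cxcl11, so it passed the probe filter only through the treated null arrays, where it was high. Its adjusted p therefore rests on background readings in the other groups and is no separate support. Cxcl10 had levels of 3.82, 3.62 and 3.72 against 3.65, 4.95 and 4.62, a difference of 0.69 (95% interval -0.36 to 1.74, adjusted p = 0.508), and Cxcl9 differed by -0.21 (95% interval -2.45 to 2.02, adjusted p = 0.929).

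Among 25 subunits, inhibitors and kinases of the NF-kappaB system, 1 was lower. Nfkbiz encodes the nuclear inhibitor-family protein that helps NF-kappaB to turn on secondary genes such as Il6. Its levels were 5.63, 5.03 and 4.35 in C57BL/6 cells and 1.44, 2.33 and 1.84 in null cells, a difference of -3.14 (SE 0.39, adjusted p = 0.0229), or 8.79-fold. The call was kept in 5 of the 12 fits (highest adjusted p 0.165). Nfkbia, the cytoplasmic inhibitor of NF-kappaB, showed no such gap: 8.47, 8.005 and 8.06 against 9.21, 7.86 and 7.77, a difference of 0.10 (95% interval -0.68 to 0.88, adjusted p = 0.905). That sign turned negative without MyD88-null apoA-I replicate 1 and in other alternatives. The deubiquitinase Tnfaip3 differed by -0.30 (95% interval -0.90 to 0.29, adjusted p = 0.594). The list's median was -0.30, with 22 of 25 negative, against 6885 of 16744 over all genes. In control cells 9 of the 25 were lower.

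Of 19 negative regulators of cytokine signalling, 2 were lower. The widest difference in the list, -2.59, was that of another member, which did not pass. Zc3h12a, an RNase that degrades cytokine messenger RNAs, stood at 0.62, 0.31 and 1.98 against -1.49, -2.22 and -0.75, a difference of -2.46 (SE 0.33, adjusted p = 0.0318). Socs3, an inhibitor of signalling from the interleukin-6 receptor, stood at 6.08, 6.46 and 5.74 against 5.10, 4.96 and 4.07, a difference of -1.38 (SE 0.20, adjusted p = 0.0452). Neither pair of groups overlapped. Zc3h12a was kept in 5 and Socs3 in 0 of the 12 fits, with a highest adjusted p of 0.25 and 0.289. Spry1, an inhibitor of receptor tyrosine kinase signalling that was in no list, was lower, with a difference of -1.21 (adjusted p = 0.0480), a call kept in 1 of the 12 fits (highest 0.3).

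All 21 measured inflammatory effector genes had negative differences, as 6885 of all 16744 genes did, with a median of -1.23, but only Lcn2 passed. In control cells the median of this list was -1.90, and 6 of its genes were lower. Lcn2, an iron-scavenging antibacterial protein, was at -1.53, -1.91 and -2.62 in C57BL/6 cells and was not well above background on any null array. It was at least 6.38-fold lower in null cells (adjusted p = 0.0152), and at least 2.33-fold in control cells (adjusted p = 0.0189), a treated call kept in 8 of the 12 fits (highest adjusted p 0.148). Ptgs2, the inducible cyclooxygenase, had one of the widest gaps, 2.71, 2.79 and 2.37 against -2.52, -0.74 and -1.25, with a difference of -4.13 (SE 0.75) and an adjusted p of 0.0969. The SE is shared by all 4 groups, and the null control arrays read -6.64, -3.78 and -7.12. Ptgs2 passed with centring on the array median, with normexp background correction and without MyD88-null control replicate 2. Acod1, which makes itaconate, stood close in both genotypes at 8.50, 8.31 and 7.92 against 8.05, 7.98 and 7.47 (difference -0.41, 95% interval -1.60 to 0.78, adjusted p = 0.723). Nos2, the inducible nitric oxide synthase, was not among the genes tested.

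The Toll-like receptor and interleukin-1 receptor components held no gene past the threshold among 31. Tlr2 was at 5.36, 6.10 and 6.06 in C57BL/6 cells and 4.81, 5.59 and 5.90 in null cells, a difference of -0.41 (95% interval -0.98 to 0.16, adjusted p = 0.476), and Tlr4, the lipopolysaccharide receptor, differed by 0.27 (95% interval -0.21 to 0.75). Cd14, a co-receptor for lipopolysaccharide, had a difference of -1.28 (SE 0.26, adjusted p = 0.126), and the receptor Il1r1 one of -1.41 (SE 0.36, adjusted p = 0.197). Cd40, a costimulatory receptor, had -0.87 (95% interval -1.50 to -0.24, adjusted p = 0.267).

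**Figure D2:**
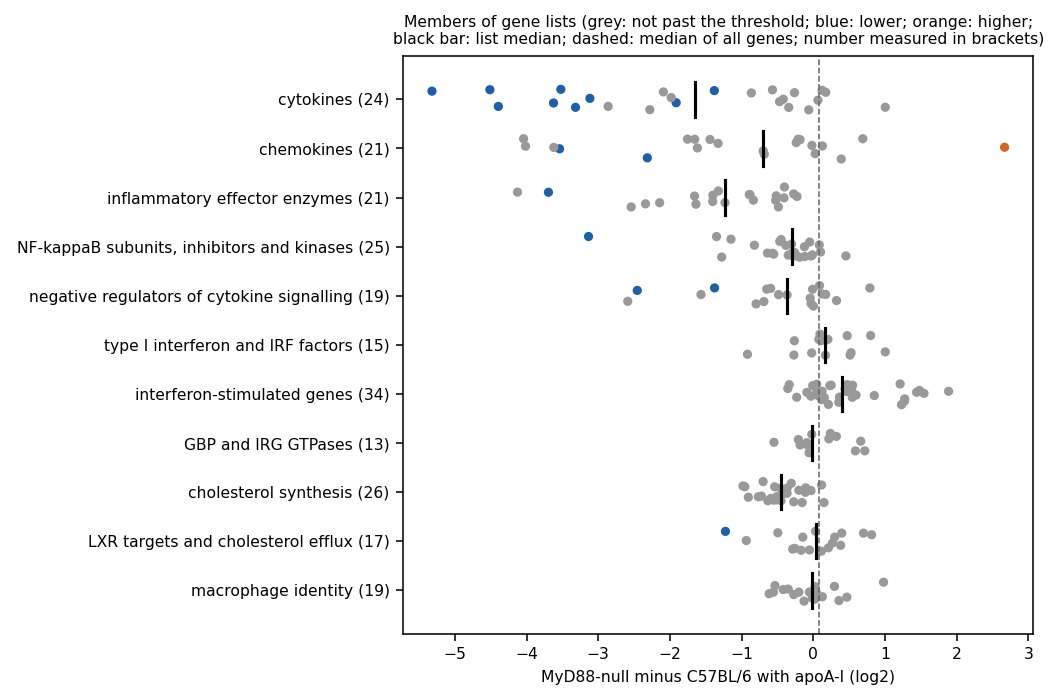
Genotype difference with apoA-I (x axis, log2, MyD88-null minus C57BL/6) for the measured members of 11 gene lists (measured numbers in brackets, 1 gene not drawn), with blue for genes past the threshold and lower, orange for higher and grey for the rest. The black bars give the list medians, from -1.65 for cytokines to 0.40 for interferon-stimulated genes, and the dashed line the median of all genes, 0.079.

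In the list of interferon-stimulated genes, which does not hold Cxcl11, none passed the threshold. Of 34 measured, 28 had positive differences, as 9859 of all 16744 genes did, and the list median was 0.40 against 0.079 over all genes. The list median stayed between 0.232 and 0.417 under the other scalings. For 7 of the 34 all null arrays lay above all C57BL/6 arrays, as for 3.18% of all genes. Rsad2, the antiviral enzyme viperin, had 3.62, 3.58 and 3.55 in C57BL/6 cells and 4.75, 5.48 and 5.15 in null cells, a difference of 1.54 (SE 0.32, adjusted p = 0.133), and it passed without MyD88-null control replicate 3 (adjusted p = 0.0445). Oasl1, an inhibitor of IRF7 translation, had 1.23 (SE 0.35, adjusted p = 0.229) and Ifit1, which binds viral RNA, 1.21 (SE 0.61, adjusted p = 0.417). Isg15, a ubiquitin-like modifier, differed by 0.35 (95% interval -0.76 to 1.47). The list median differed between experiments, at 0.022, 0.61 and 0.46 in experiments 1, 2 and 3, against 0.19, 0.007 and 0.046 over all genes. In experiment 1 it was thus below the median of all genes.

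Edn1 encodes the precursor of the vasoconstrictor endothelin-1 (mm7 chromosome 13, 41748495 to 41748554). Its levels were 0.49, 1.32 and 1.27 in C57BL/6 cells and -2.30, -2.61 and -2.50 in null cells, with no control array above background. The difference of -3.50 (SE 0.34, adjusted p = 0.00976), or 11.3-fold, was kept in 8 of the 12 fits (highest adjusted p 0.104). Ier3, a stress-induced survival gene and the single early gene past the threshold among 30, was lower, with a difference of -1.97 (SE 0.24, adjusted p = 0.0207, 6 of 12 fits, highest 0.181), and of -1.56 (adjusted p = 0.0304) in control cells. Id3, an inhibitor of basic helix-loop-helix factors, was lower, with a difference of -1.79 (SE 0.26, adjusted p = 0.0480, 2 of 12 fits, highest 0.3).

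The following genes were chosen for having passed, not as a list. A transcript that the array file describes as serum amyloid A (ENSMUST00000094405) stood at 0.65, 0.40 and -0.21 against -2.53, -1.91 and -2.64, a difference of -2.64 (SE 0.30, adjusted p = 0.0172, 8 of 12 fits, highest 0.161). Serum amyloid genes are near-identical copies, so that probe and the one named Saa3, which differed by -2.54 (SE 0.50, adjusted p = 0.120), can share signal. C3, the central complement protein, was lower, with a difference of -1.48 (SE 0.21, adjusted p = 0.0427, 2 of 12 fits, highest 0.2 without C57BL/6 apoA-I replicate 3), and its other probe gave -1.14 (adjusted p = 0.251 among probes). The zinc importer Slc39a14, an acute phase gene of the liver, was lower, with a difference of -1.43 (SE 0.18, adjusted p = 0.0279, 3 of 12 fits, highest 0.250), with -0.77 (adjusted p = 0.335) at its other probe. In control cells these differences were -2.37 for the serum amyloid A transcript, -1.71 for C3 and -1.17 for Slc39a14. Csta2, described as a cysteine protease inhibitor of the stefin family, was lower, with a difference of -1.24 (adjusted p = 0.0152, 7 of 12 fits, highest 0.161) with overlapping groups, and the unnamed transcript BI100969 by -1.64 (adjusted p = 0.0174, 6 of 12 fits, highest 0.148), also with overlap.

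Of 17 targets of the liver X receptor and cholesterol efflux genes, 1 was lower. This was Scd1, the desaturase that makes oleate. It was at 1.22, 0.53 and 0.25 in C57BL/6 cells and -0.14, -0.62 and -0.93 in null cells, a difference of -1.23 (SE 0.17, adjusted p = 0.0383, 2 of 12 fits, highest 0.252), and differed by -1.36 (adjusted p = 0.0120) in control cells. Elovl6, the elongase acting on palmitate, was lower, with a difference of -1.13 (SE 0.16, adjusted p = 0.0413, 1 of 12 fits, highest 0.280). Of 26 cholesterol synthesis genes, 24 had negative differences (median -0.46), as 6885 of all 16744 genes did. At an unadjusted p under 0.05, 15 of the 26 were lower, as 816 of all 16744 genes were, and none passed. The medians in experiments 1, 2 and 3 were -0.47, -0.48 and -0.28, and other scalings gave -0.628 to -0.443. Hsd17b7, a late enzyme of the pathway, had -0.98 (SE 0.23, adjusted p = 0.169), and Fdps, farnesyl diphosphate synthase, -0.70 (SE 0.17, adjusted p = 0.181). In control cells the list median was -0.25.

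Of the transporters that move cholesterol out of macrophages, neither passed. Abca1, which passes cholesterol to apoA-I itself, was at 3.51, 3.37 and 3.34 in C57BL/6 cells and 2.60, 3.46 and 3.29 in null cells, a difference of -0.29 (95% interval -0.82 to 0.24, adjusted p = 0.573). The low value came from MyD88-null apoA-I replicate 1, the dimmest array, and without experiment 1 the difference was 0.02. Abcg1, which passes cholesterol to high-density lipoprotein, was at 3.10, 2.74 and 3.33 against 3.97, 3.66 and 3.98, without overlap. Its difference was 0.81 (SE 0.15, adjusted p = 0.104), and it passed with the slide as a random block.

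The widest difference of all was that of Mela, a gene named for a melanoma antigen of retroviral origin. Its log2 levels were -4.76, -4.90 and -3.70 in C57BL/6 cells, where 1 of 3 arrays was above background, and 5.78, 6.55 and 7.17 in null cells. The difference was 10.96 (SE 0.39, adjusted p = 2.16e-05) with apoA-I and 10.57 (SE 0.39) in control cells, where 2 of 3 C57BL/6 arrays were above background, so these sizes rest in part on readings near background.

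The other genes that were higher had smaller differences. Zfp14, a zinc finger gene, differed by 2.34 (SE 0.34, adjusted p = 0.0480, 2 of 12 fits, highest 0.280) and Zfyve28, which regulates endosomal growth factor receptors, by 1.39 (SE 0.16, adjusted p = 0.0198, 5 of 12 fits, highest 0.181). Both were above background on only 1 of 3 C57BL/6 arrays, so the sizes rest largely on readings near background. Pcp4l1 had 1.04 (SE 0.13, adjusted p = 0.0279, 2 of 12 fits, highest 0.252). Ramp1, which with its partner receptor binds calcitonin gene-related peptide, had 0.91 (SE 0.13, adjusted p = 0.0480, 0 of 12 fits, highest 0.280).

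Genes near Myd88 on chromosome 9 were set apart by position. Of 270 genes within 20 Mb, 2 were lower (0.741%), against 0.179% of all genes. Of 627 genes on the rest of chromosome 9 none passed. In control cells 2 of the 270 and 4 of the 627 were lower. The median difference with apoA-I was 0.076 within the window and 0.079 over all genes. The lowest difference in the window, -2.59, was that of a gene that did not pass. Limd1, an adaptor of the LIM family 4.22 Mb away, was at 4.13, 3.95 and 3.44 against 2.16, 2.79 and 1.90, a difference of -1.56 (SE 0.19, adjusted p = 0.0206, 8 of 12 fits, highest 0.161), and another probe gave -0.87 (adjusted p = 0.0659 among probes). The transcript 0610042G04Rik, 4.63 Mb away, was lower, with a difference of -1.56 (SE 0.21, adjusted p = 0.0318, 3 of 12 fits, highest 0.191 without C57BL/6 apoA-I replicate 3). Both were also lower in control cells, with differences of -1.18 and -2.04.

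**Figure D3:**
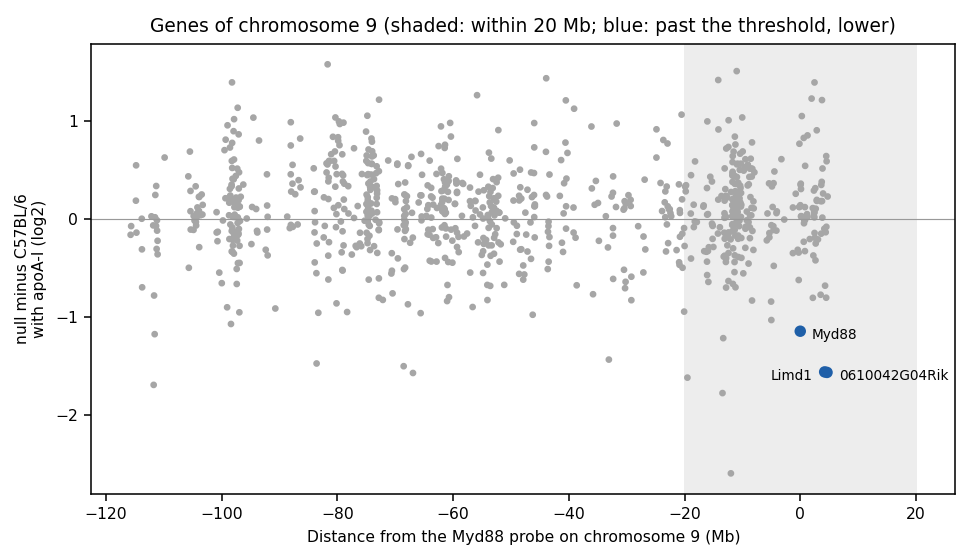
Genotype difference with apoA-I (y axis, log2) of each measured gene of chromosome 9 against its distance from the Myd88 probe (x axis, Mb), with the 20 Mb window shaded. The 3 blue points, Myd88, Limd1 and 0610042G04Rik, are the genes of this chromosome past the threshold.

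Summed markers of B cells and mast cells did not overlap between genotypes, while those of T cells did. Over all 16744 genes tested, 9859 differences were positive and 6885 negative. Of 8 measured B cell markers, 7 had negative differences and none passed, and their summed signal was 26.9 to 31.7 times the 75th percentile on C57BL/6 arrays and 18.3 to 22.8 on null arrays. The transcript ENSMUST00000003582, described as an immunoglobulin heavy chain mu constant region, was lower, with a difference of -1.69 (SE 0.18, adjusted p = 0.0126, 7 of 12 fits, highest 0.120), at 3.28, 4.04 and 3.56 against 1.73, 2.26 and 1.82. Ms4a1, which encodes CD20, differed by -0.78 (SE 0.18, adjusted p = 0.163) and passed with array weights. Of 7 measured mast cell markers, 5 had negative and 2 positive differences and none passed, with Cma1 at -1.001 (SE 0.27, adjusted p = 0.211). Mast cell markers summed to 7.76 to 9.62 on C57BL/6 arrays and 3.91 to 5.59 on null arrays, with Tpsab1 and Ms4a2 not among the genes tested. T cell markers had positive differences in 9 of 9, summing to 2.14 to 3.04 against 2.73 to 5.15. Their median was 0.92, 0.23 and 0.18 in experiments 1, 2 and 3, and -0.011 in control cells. Cd28 had 1.16 (SE 0.20, adjusted p = 0.0826, past the threshold with the slide as a random block) and Cd3d 0.82, where the null arrays read -0.89, -2.77 and -2.88. Neutrophil markers overlapped, at 1.30 to 1.45 against 1.23 to 1.64, with Ly6g, Elane, Camp, Ngp and Retnlg not among the genes tested, and mesothelial and fibroblast markers at 82.7 to 239 against 67.4 to 198. Of 10 genes of resident peritoneal macrophages 5 had negative and 5 positive differences (median 0.10), and their sum, 304 to 329.7 on C57BL/6 arrays and 171.8 to 206.8 on null arrays, included Saa3, which was at 7.33, 6.81 and 7.05 against 3.77, 4.75 and 5.05, with Timd4, Prg4 and Alox15 not among the genes tested. In bulk RNA, fewer cells of a type and less RNA per cell cannot be told apart, and the part of these cells in the cytokine differences was not tested.

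The genotype difference was next set beside that of control cells, for which 100 genes passed (0.597%), 12 higher (0.0717%) and 88 lower (0.526%). Of the 30 genes lower with apoA-I, 18 were also lower in control cells, and of the 7 higher, 4 were also higher. The sign was the same in control cells for 35 of the 37. No gene passed the test of the difference between treated and control genotype differences in limma (smallest adjusted p 0.0897; 1214 genes at an unadjusted p under 0.05), so no gene is shown to depend on apoA-I for its genotype difference. The interaction count rose to 3 with quantile normalization, 6 with centring on the array median, 3 with normexp background correction and 2 with the slide as a random block, and the genes called there included Il6, Il12b, Il1a, Csf2 and Edn1 with negative values and Nfkbie with a positive one.

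The 12 genes lower with apoA-I and not called in control cells were Il6, Il12b, Il1a, Csf2, Edn1, Zc3h12a, Ccl3, Il23a, Id3, Osm, Spry1 and Elovl6. They were selected on passing in one condition and not in the other, so a larger treated difference is part of their choice. Il6, Il12b, Csf2, Edn1 and Il23a were at or near background in control cells of both genotypes, so a control difference could not have been read there. Il1a was above background on all 12 arrays and differed by -1.004 in control cells against -3.62 with apoA-I, a difference of differences of -2.62 (95% interval -3.42 to -1.82, adjusted p = 0.168).

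Some genes were lower in null control cells and near the C57BL/6 level with apoA-I. Nfkbia differed by -2.46 in control cells against 0.10 with apoA-I, Acod1 by -3.99 against -0.41, Tlr2 by -2.43 against -0.41 and Cxcl10 by -3.41 against 0.69. Their differences of differences were 2.56 (95% interval 1.46 to 3.67, adjusted p = 0.372), 3.58 (1.90 to 5.26, adjusted p = 0.419), 2.02 (1.21 to 2.83, adjusted p = 0.303) and 4.10 (2.62 to 5.58, adjusted p = 0.238), none past the threshold. These 4 genes were set together after their values were seen. Of the 88 genes lower in null control cells, 82 were below 0 with apoA-I too, with a median of -2.08 in control and -1.18 in treated cells. Those genes were selected on the control difference, so the smaller treated median is a description.

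**Figure D4:**
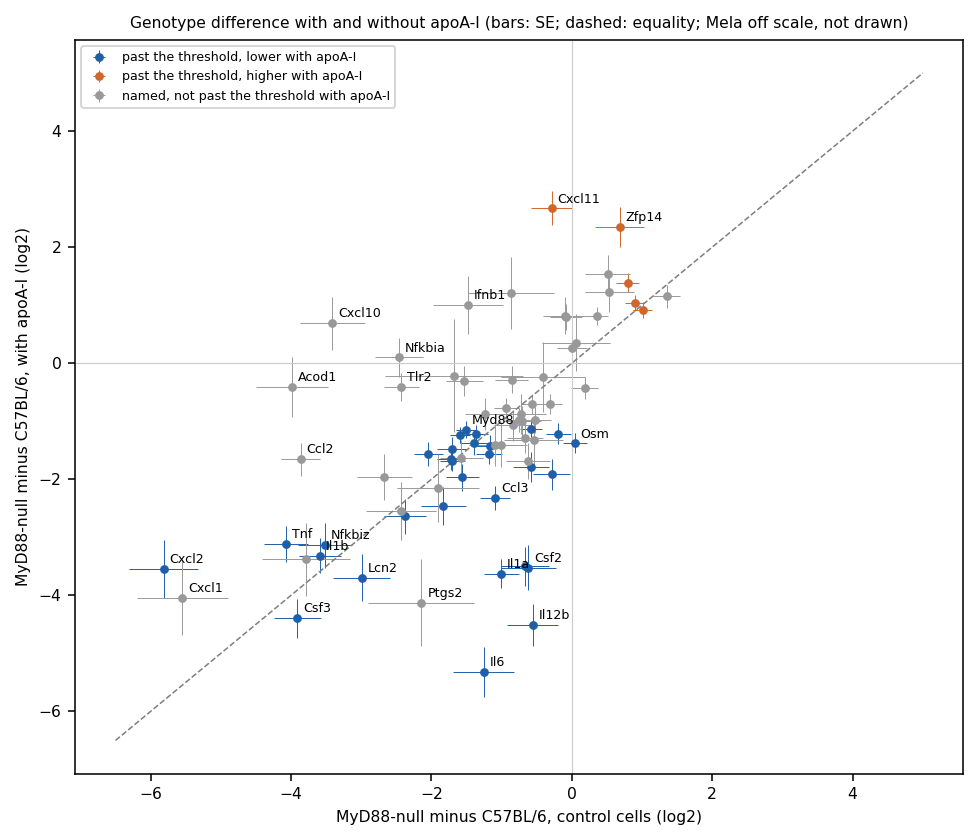
Genotype difference with apoA-I (y axis) against that in control cells (x axis), both log2 with SE bars, for named genes, without Mela. Values of genes near background in control cells are drawn as read. Il6 and Il12b lie far below the dashed line of equality, Il1b and Csf3 near it, and Cxcl10, Nfkbia and Acod1 above it with treated differences of 0.69, 0.10 and -0.41.

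Other genes, also put together from their values, were lower in null cells under both conditions. Il1b was at least 4.85-fold lower in null control cells and 9.97-fold lower with apoA-I. Cxcl2 was at least 22.2-fold lower in null control cells and 11.6-fold lower with apoA-I. Tnf and Nfkbiz differed by -4.07 and -3.52 in control cells and by -3.12 and -3.14 with apoA-I, with differences of differences of 0.95 (adjusted p = 0.703) and 0.38 (adjusted p = 0.904).

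**Figure D5:**
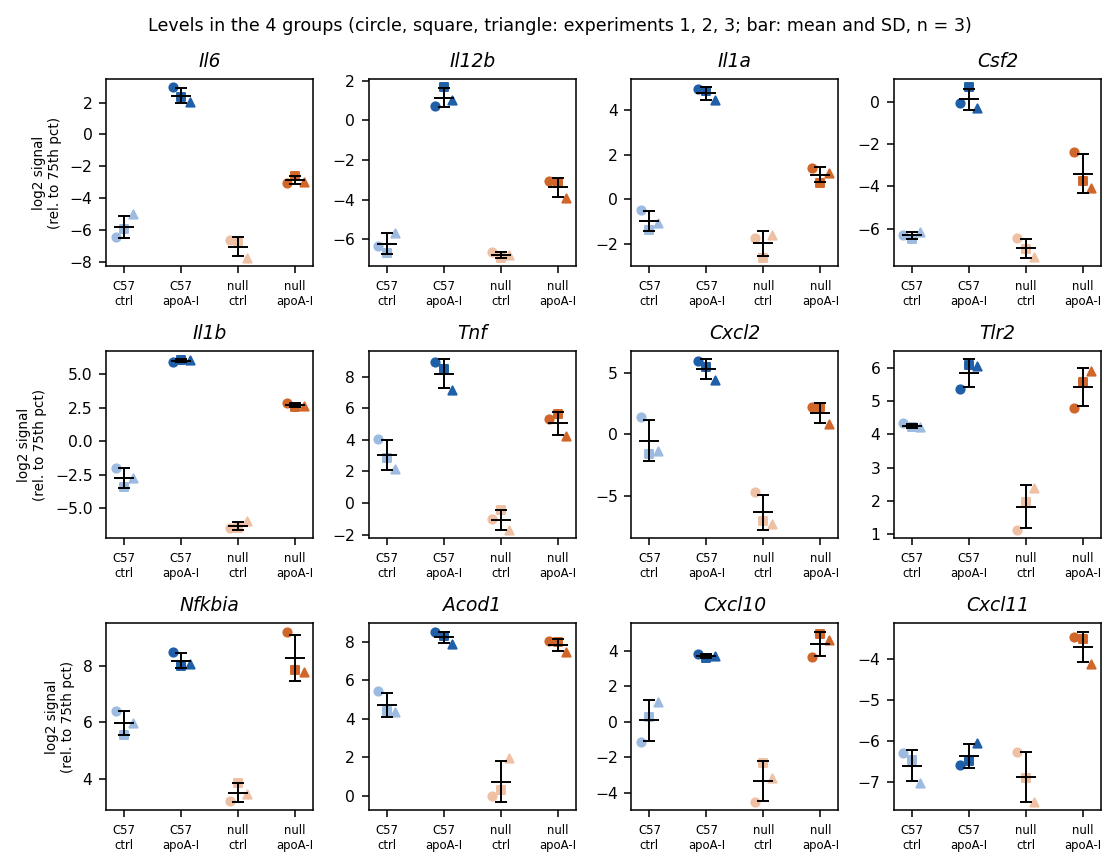
Log2 level (y axis) of 12 genes on all 12 arrays by group, with the mean and SD of 3 arrays in black. As drawn, Il6, Il12b, Il1a and Csf2 separate by genotype mainly with apoA-I, Il1b, Tnf and Cxcl2 under both conditions, and Tlr2, Nfkbia, Acod1 and Cxcl10 mainly in control cells. Il6, Il12b and Csf2 were at or near background in control cells, and no gene passed the test of the difference between treated and control genotype differences. Cxcl11 was above background on the treated null arrays and on no others.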

How the data were processed

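The 12 one-colour arrays, labelled with Cy3 from 500 ng of RNA per the labels, were scanned and quantified in Agilent Feature Extraction. The submitters' processing notes name version 9.5, and per the file headers it was 9.5.1.1 or 9.5.3.1. The deposited processed intensity is background-corrected within the array, per the file headers, and was not scaled between arrays. Mean and background intensity columns deposited beside it served only for normexp background correction (offset 50). The authors' deposited log10 values follow the log10 processed intensity (r 0.99257 to 0.99974 across probes), and their normalization and centring are not stated. Their column medians were 1.8225 to 1.8676, while the 75th percentiles of the processed intensity ran from 209.8 to 1489. The deposited values were thus closer in level between arrays than the processed intensity, by a step that is unknown here. Converted to log2, these deposited values served as an alternative only.

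Log2 levels were computed here from deposited intensities relative to each array's 75th percentile, without control spots and outliers. A probe was kept if every array of some group had it well above background (24350 of 41174), and the probe with the highest mean stood for a gene. Names came from RefSeq genes (22951 probes by accession, 124 by another accession, 6582 by symbol, 3077 by synonym, while 8440 kept the file's name), and coordinates are the files' mm7 probe positions, with exon annotation not used here. limma 3.58.1 in R 4.3.3 (jsonlite 2.0.0, and version 1.17.8 of data.table) fitted 4 group means and the replicate number as a block to all 12 arrays (6 residual and 2.44 prior degrees of freedom), two-sided, with Benjamini-Hochberg adjustment. For 15 tested genes a value was missing on an array, none of them past the threshold.

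The block rests on the series design text, which describes 3 experiments of 4 samples. Deviations from group means correlated at 0.296 to 0.859 for the 18 pairs of arrays with the same number and at -0.812 to 0.547 for the 36 others. Without the block 11 of the 37 genes passed and no others.

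Genes were named as the 15 largest increases and decreases past the threshold, up to 4 such members of each of 35 lists or otherwise up to 2 with the smallest p, a fixed set of inflammatory and cholesterol genes, and those within 20 Mb of Myd88. Not all were printed, and 1 gene past the threshold is not reported here. The members, lists and tests were chosen with earlier results of these data known. The fits were tested on simulated data. The alternatives tried were other scalings, filters, blocks, array weights, treatment labels and left-out arrays.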

Additional observations from a re-analysis of the deposited data

How the results depend on the processing

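Among the 37 genes no sign turned in any of the 32 alternatives in which they were measured, but their calls were less steady: over genes and settings 571 were kept and 606 lost. The count of 37 genes became 2 from the 6 treated arrays with the replicate block and 6 without it, 58 with normexp, 14 without the filter on dim probes (27668 genes tested) and 18 with scan day as a block. It became 13 with treatment taken from descriptions and 1 without both samples with conflicting labels. Leaving out arrays or experiments gave 0 to 60. Without the replicate block, which rests on the pairing by experiment, 11 genes passed with apoA-I and 13 in controls. The control count of 100 became 61 with median centring, 45 without the filter, 21 with scan day, 66 with the slide as a random block, 1 with descriptions and 7 without both samples, and 0 to 103 with arrays or experiments left out. The interaction count of 0 became 3 with quantile normalization, 6 with median centring, 3 with normexp, 2 with the slide and 3 with descriptions, and 0 to 2 with arrays left out. The cause was not tested.

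Among named genes, signs turned in 17 cases, all of genes that had not passed. Nfkbia became -0.0705 with median centring, -0.22 with scan day, -0.0489 with the slide and -0.15 with array weights, and ranged from -0.29 to 0.33 with arrays or experiments left out. Cxcl9 became 0.20 with scan day and ranged from -0.63 to 0.33, Ccl5 ranged from -0.50 to 0.0823 and Abca1 from -0.53 to 0.0215. With treatment from descriptions Ccl4 became 0.15, Ccl5 0.59, Tnfaip3 0.57, Acod1 0.80, Tlr2 0.29 and Cd40 0.038. The median of all genes, 0.079, ranged from -0.092 to 0.093 under other scalings, and list medians near 0 turned too (liver X receptor targets from 0.031 to -0.14, interferon and IRF factors from 0.169 to -0.002), and 23 uncalled results passed in an alternative. Probes near background limit the low values.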

Other observations

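Several genes outside the inflammatory groups had wide differences with apoA-I that did not pass the threshold. Serpinb2, an inhibitor of plasminogen activators, was at 4.43, 5.32 and 4.33 in C57BL/6 cells and -0.85, 3.03 and 1.78 in null cells, a log2 difference of -3.38 (SE 0.63, adjusted p = 0.104), and it was lower in control cells (-3.79, adjusted p = 0.0440). Slc7a11, the cystine transporter, had a difference of -2.14 (SE 0.59, adjusted p = 0.223), Mmp13, a collagenase, one of -1.69 (SE 0.31, adjusted p = 0.100), and Adm, the vasodilator adrenomedullin, one of -1.64 (SE 0.31, adjusted p = 0.105). For these 4 genes the null arrays all lay below the C57BL/6 arrays, as for 2.43% of all genes. They were named for a small p within their lists, so this is part of their choice.

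Nlrp3, the sensor of an inflammasome, had levels of 0.90, 0.20 and -0.87 against -0.41, -0.65 and -1.93, which overlapped, and a difference of -1.07 (SE 0.27, adjusted p = 0.194). Irf2, a factor of the interferon system, had a difference of 0.80 (SE 0.23, adjusted p = 0.230). Pdgfra, a receptor of fibroblasts, had -1.96 (SE 0.39, adjusted p = 0.125) with overlapping groups, and passed without MyD88-null control replicate 3. In control cells Pdgfra was lower, with -2.67 (adjusted p = 0.0272).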
